A study of Caenorhabditis elegans with 66 samples.

Results

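The mRNAs of 10 genes of the meiotic chromosome axis and synaptonemal complex were followed in *Caenorhabditis elegans*. These were the axis genes *him-3*, *htp-1*, *htp-2* and *htp-3*, the central region genes *syp-1*, *syp-2*, *syp-3* and *syp-4*, the cohesin gene *rec-8*, and *spo-11*. They were taken by name, with earlier results of these data known, and are 10 of the 46740 genes in each of the tables used. All 10 passed the filter on low counts in both comparisons.

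During meiotic prophase each chromosome folds along a protein axis, made in *C. elegans* of cohesin with REC-8 or its relatives and of proteins with a HORMA domain (HTP-3, HIM-3, HTP-1 and HTP-2). The SYP proteins form the central region of the synaptonemal complex, which joins the axes of homologous chromosomes along their length. SPO-11 cuts the DNA, and some of the resulting breaks are repaired as crossovers, on which the correct separation of homologs depends. These proteins act in germ cells, so in whole animals their mRNA comes mainly from the gonad.

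The study asked how RPB-9, a subunit of RNA polymerase II, acts in the piRNA pathway, in which the Argonaute PRG-1 carries piRNAs to target transcripts. Whole animals raised at 20 °C on HB101 bacteria were used for RNA-seq, and 2 comparisons of 3 libraries against 3 were used. In the first, polyA-selected RNA of *rpb-9* (*mj261*) animals, a single allele with a premature stop codon in the TFIIS C domain, was set against wild type. In the second, ribosomal RNA was depleted with Ribo-Zero and *prg-1* (*n4357*) animals were set against wild type. The wild-type animals of the study carry the piRNA sensor (*mjIs144*), a *gfp* transgene that wild-type animals silence through piRNAs, and sensor reads were counted in every library of both mutants. The age of the animals sequenced for RNA is not given in the sources used here. Columns are named by strain, and genotypes were matched to them by elimination, with the strain found in both tables as wild type. The study calls its replicates biological, and the sources used here do not say whether they were separate cultures, so p-values measure the spread between these libraries, which may be technical.

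Between 24089008 and 36206726 counts fell on genes in each polyA library, and between 6099453 and 9881058 in each Ribo-Zero library. The share of ribosomal RNA was 7.93% in *rpb-9* replicate 3, at most 0.69% in each other polyA library and 34.2% to 48.4% in the Ribo-Zero libraries. The label checks differed in clarity. In CPM, which here are TMM-normalized counts scaled to a common library size, the sensor ranged from 1.08 to 1.496 in wild type and from 62.7 to 73.3 in *rpb-9*. In the Ribo-Zero libraries it ranged from 3.03 to 4.89 in wild type and from 19.5 to 28.8 in *prg-1* animals. The *prg-1* mRNA itself fell from 161 to 176 CPM in wild type to 54.01 to 59.97 CPM in the mutant (adjusted p = 0.00379, edgeR quasi-likelihood test, Benjamini-Hochberg adjusted). The *rpb-9* mRNA had 37.3 to 47.8 CPM in wild type and 41.7, 26.3 and 24.9 in *rpb-9* replicates 1, 2 and 3, so the library labelled *rpb-9* replicate 1 lay within the wild-type range. The allele changes the coding sequence, so its mRNA level is no direct check of the label. That library also stood apart from its 2 replicates on the second principal component of the polyA table (15.6% of the variance), as did *prg-1* replicate 3 on that of the Ribo-Zero table (27.01%). On the first component of the Ribo-Zero table (54.3% of the variance), *prg-1* replicate 3 lay at −18.97, within the wild-type range of −36.26 to −14.26. There *prg-1* replicates 1 and 2 lay at 43.98 and 45.80. Results that rest on *rpb-9* replicate 1 or *prg-1* replicate 3 are given with and without that library. No pair of replicates agreed within sampling noise (chi-square over its degrees of freedom, 6.17 to 237).

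The genes lie on 3 chromosomes of WBcel235 (ce11). *him-3* (WBGene00001862, chromosome IV, 6977508 to 6978765, plus strand), *htp-1* (WBGene00002032, IV, 5390189 to 5391557, minus), *htp-2* (WBGene00002033, IV, 6419522 to 6420898, plus), *rec-8* (WBGene00004333, IV, 13349122 to 13353193, minus) and *spo-11* (WBGene00004985, IV, 11123133 to 11124862, minus) share chromosome IV, which held 17.6% of the genes tested in the polyA table. *htp-3* (WBGene00002034, I, 4827072 to 4829791, plus), *syp-3* (WBGene00006377, I, 8663045 to 8664445, minus) and *syp-4* (WBGene00019247, I, 6847511 to 6849923, plus) lie on chromosome I. *syp-1* (WBGene00006375, V, 16404274 to 16407701, plus) and *syp-2* (WBGene00006376, V, 5536487 to 5537717, plus) lie on chromosome V.

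All are protein-coding genes of 4 to 9 exons, and their summed exon lengths run from 879 bases (*syp-2*) to 2467 bases (*rec-8*). Reads were 50 bases long and were aligned end to end without introns, so reads across a splice junction of an mRNA were lost. Between 77.1% (*syp-3*) and 90.5% (*him-3*) of the 50-base stretches of each mRNA lie inside one exon. The exons of *syp-3* overlap those of *mrt-1* over 36.2% of their bases, so the counts of *syp-3* are uncertain there, and the overlaps of *spo-11* with *enpl-1* (1.62%) and of *him-3* with *prkl-1* (0.69%) are short.

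*htp-1* and *htp-2* are close copies, and how far their reads can be told apart bears on the values of both. Their coding sequences of 1056 bases each match at 954 positions (90.3%), whereas *him-3* matches *htp-1* at 49.5% of aligned positions. Of 1032 exon-internal 50-base stretches of *htp-1*, 13 (1.26%) are identical in *htp-2* and 212 (20.5%) lie within the 2 mismatches that the alignment allowed. The longest identical coding run is 62 bases. It is shown with its flanks from chrIV:5391020-5391105 on the minus strand (*htp-1*) and chrIV:6419980-6420065 on the plus strand (*htp-2*), because reads from it fit both genes, and capitals mark the 3 of 86 bases that differ.
htp-1: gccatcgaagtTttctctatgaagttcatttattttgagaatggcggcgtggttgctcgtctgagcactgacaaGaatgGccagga
htp-2: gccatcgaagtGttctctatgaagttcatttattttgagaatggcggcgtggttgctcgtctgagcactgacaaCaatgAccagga

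The most divergent coding window of 60 bases, from chrIV:5391124-5391183 on the minus strand (*htp-1*) and chrIV:6419902-6419961 on the plus strand (*htp-2*), is shown because its reads separate the copies. Capitals mark the 11 bases that differ.
htp-1: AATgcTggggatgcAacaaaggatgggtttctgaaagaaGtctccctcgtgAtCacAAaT
htp-2: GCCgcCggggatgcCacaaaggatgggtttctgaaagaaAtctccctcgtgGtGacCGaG

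The authors split a read that mapped to several places into fractions. Counts of both *htp-1* and *htp-2* were not whole in 3 of 6 polyA and 2 of 6 Ribo-Zero libraries, while those of the other 8 genes were whole in every library.

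In wild-type polyA libraries, levels per kilobase of exon ran from 112 ± 5.19 CPM per kb for *him-3* to 37.9 ± 2.52 for *spo-11* (SD, n = 3). *htp-1* had 108 ± 9.90, *syp-4* 86.6 ± 3.22, *syp-2* 75.1 ± 1.18 and *htp-3* 64.5 ± 1.82 CPM per kb. *htp-2* had 56.2 ± 2.24, *rec-8* 55.9 ± 0.745, *syp-3* 47.5 ± 2.55 and *syp-1* 41.4 ± 1.00. The libraries of *him-3* and *htp-1*, of *htp-2* and *rec-8*, and of *syp-1* and *spo-11* overlapped, so the order of these neighbours is not set beyond their spread. Levels were divided by full exon length, with no correction for lost junction reads or for the overlap of *syp-3* with *mrt-1*. In the Ribo-Zero wild type the same 5 genes led in the same order, from 40.1 ± 2.16 CPM per kb for *him-3* through *htp-1*, *syp-4* and *syp-2* to 24.9 ± 4.25 for *htp-3*, and *spo-11* was again lowest (12.8 ± 2.51). There *htp-3* overlapped both *syp-2* and *rec-8*. In *rpb-9* mutants *htp-3* had 35.3 ± 1.59 CPM per kb, and its libraries overlapped those of *syp-1* (35.9 ± 2.00) and *spo-11* (41.6 ± 14.8). The mean of *htp-3* was the last of the 10 there, after the fifth place in wild type. Without *rpb-9* replicate 1 the last was *spo-11* (33.1 against 34.4 for *htp-3*).

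In *rpb-9* mutants 5 of the 10 mRNAs fell and 0 rose, at an adjusted p-value under 0.05 in the TMM-scaled fit over all 14275 genes tested, against 2 with scaling by library size alone. The 5 were *htp-3*, *syp-4*, *syp-2*, *htp-1* and *rec-8*, with levels at 0.548 to 0.759 of wild type. Of all genes tested, 21.3% were lower and 29.5% higher by this rule. By the study's rule of an adjusted p-value under 0.01 and more than a 2-fold change, 0 of the 10 were called, against 1.49% of all genes lower and 13.8% higher. Libraries of both genotypes did not overlap for 7 of the 10, all lower in *rpb-9*, against 27% of all genes tested lower without overlap. At an unadjusted p-value under 0.05, 7 of the 10 were lower, against 24.5% of all genes. The median of the 10 log2 fold changes was −0.31, against 0.14 over all genes.

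**Figure D1:**
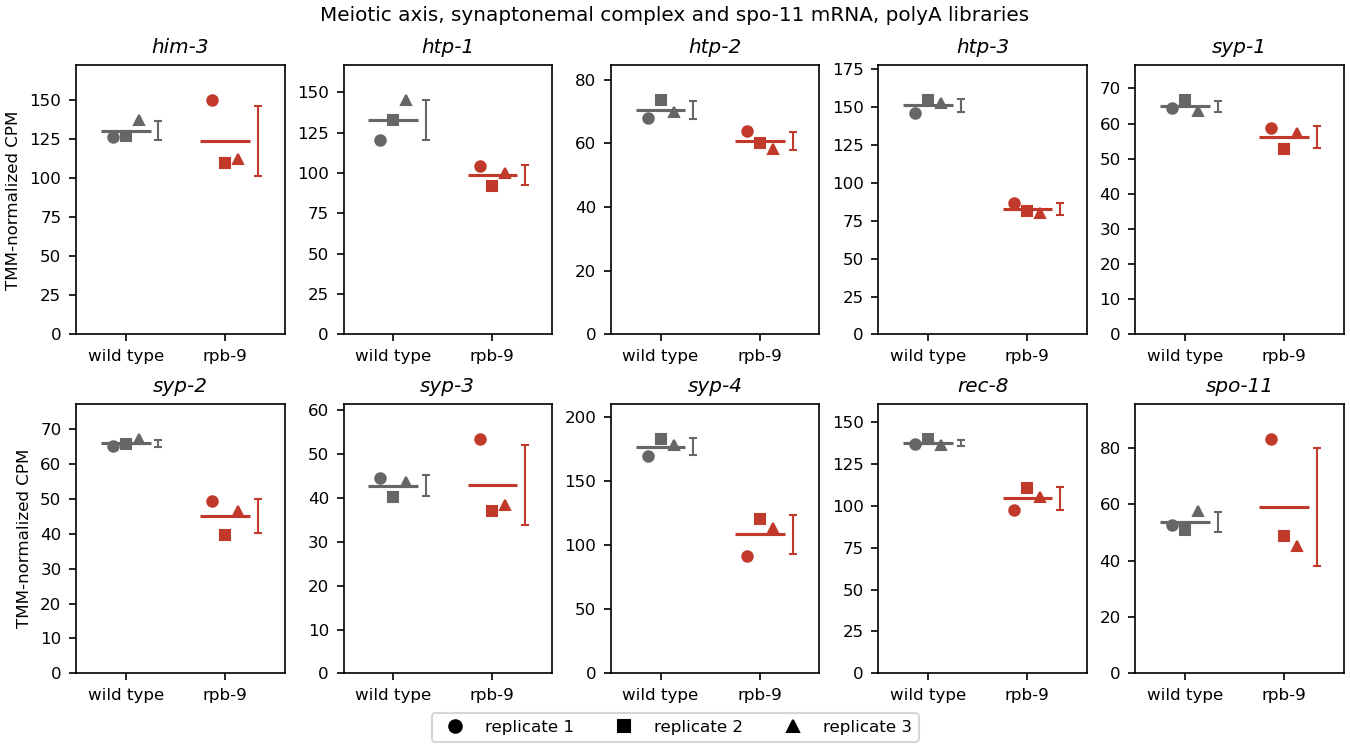
TMM-normalized CPM of each of the 10 genes in the 6 polyA libraries (y axis, from 0), with wild type in grey and *rpb-9* in red; symbols are replicates, horizontal bars the means and error bars the SD of 3 libraries. The groups do not overlap for *htp-1*, *htp-2*, *htp-3*, *syp-1*, *syp-2*, *syp-4* and *rec-8*, and *rpb-9* replicate 1 is above all wild-type libraries for *him-3*, *syp-3* and *spo-11*.

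Among the axis genes, the largest decrease was that of *htp-3*, whose product brings the other HORMA proteins to the axis. It had 146, 155 and 153 CPM in wild type and 87.04, 81.7 and 79.9 CPM in *rpb-9*. The replicates lay close together and the groups far apart. Its log2 fold change was −0.87 (standard error 0.08, adjusted p = 0.000206, edgeR quasi-likelihood test, Benjamini-Hochberg adjusted). *htp-1*, whose product guards against synapsis between non-homologous chromosomes, had 121, 133 and 145 CPM in wild type and 104.1, 91.9 and 99.9 in *rpb-9*. Every *rpb-9* library was below every wild-type library, and the log2 fold change was −0.43 (standard error 0.10, adjusted p = 0.00769, edgeR quasi-likelihood test, Benjamini-Hochberg adjusted). Its call was lost without wild-type replicate 3 (adjusted p = 0.0627) or without *rpb-9* replicate 3 (adjusted p = 0.074, edgeR in both).

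The copy *htp-2* had 68.0, 73.5 and 69.8 CPM in wild type and 63.9, 60.1 and 58.4 in *rpb-9*. Its groups did not overlap, but the log2 fold change of −0.21 (95% interval −0.41 to −0.01) did not pass the test (adjusted p = 0.070, edgeR quasi-likelihood test, Benjamini-Hochberg adjusted). Whether *htp-1* and *htp-2* differed in their change was not tested. With both summed into 1 row, chosen after seeing the data, the log2 fold change was −0.35 (standard error 0.09, adjusted p = 0.0116, edgeR quasi-likelihood test, Benjamini-Hochberg adjusted). The ratio of *htp-1* to *htp-2* per kb was 1.81, 1.85 and 2.12 in wild type and 1.66, 1.56 and 1.75 in *rpb-9*, which did not overlap.

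*him-3*, a HORMA gene needed for pairing and synapsis, had 127, 127 and 137 CPM in wild type and 150, 109 and 112 in *rpb-9*. Replicate 1 of *rpb-9* was above the wild type and the other 2 below it. The log2 fold change was −0.07 (95% interval −0.37 to 0.22). Without *rpb-9* replicate 1 it was −0.19 and passed the test (adjusted p = 0.0204, edgeR quasi-likelihood test, Benjamini-Hochberg adjusted).

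Among the central region genes, *syp-4* had 170, 183 and 178 CPM in wild type and 91.4, 121 and 114 CPM in *rpb-9*, and *syp-2* had 65.1, 65.8 and 67.2 against 49.3, 39.8 and 46.6. For both, the highest *rpb-9* library was below the lowest wild-type library. Their log2 fold changes were −0.70 (standard error 0.11, adjusted p = 0.00178) and −0.55 (standard error 0.11, adjusted p = 0.00384; edgeR quasi-likelihood test, Benjamini-Hochberg adjusted in both). *syp-1* had 64.4, 66.6 and 63.5 CPM in wild type and 58.6, 52.7 and 57.4 in *rpb-9*. The groups did not overlap, and the log2 fold change of −0.21 (standard error 0.09) did not pass the test (adjusted p = 0.0829, edgeR quasi-likelihood test, Benjamini-Hochberg adjusted). *syp-3* had 44.6, 40.3 and 43.7 CPM against 53.4, 37.0 and 38.5, with a log2 fold change of 0.00 (95% interval −0.34 to 0.35). Here too *rpb-9* replicate 1 was the highest of all 6 libraries. The SYP proteins are known to depend on each other for loading onto chromosomes. Their mRNA levels ranged from 0.614 to 1.00 of wild type.

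*rec-8*, which encodes a meiosis-specific kleisin of cohesin, had 137, 140 and 136 CPM in wild type and 97.5, 111 and 105 in *rpb-9*. Its groups were well apart, and the log2 fold change was −0.40 (standard error 0.08, adjusted p = 0.00538, edgeR quasi-likelihood test, Benjamini-Hochberg adjusted). *spo-11* had 52.8, 50.9 and 57.8 CPM in wild type and 83.1, 48.8 and 45.1 in *rpb-9*. The 3 *rpb-9* libraries lay on both sides of the wild type, and the log2 fold change of 0.13 had a 95% interval from −0.36 to 0.63. Of the 5 genes that fell, the calls of *htp-3*, *syp-4*, *syp-2* and *rec-8* held in each of the 6 fits that left out a library.

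**Figure D2:**
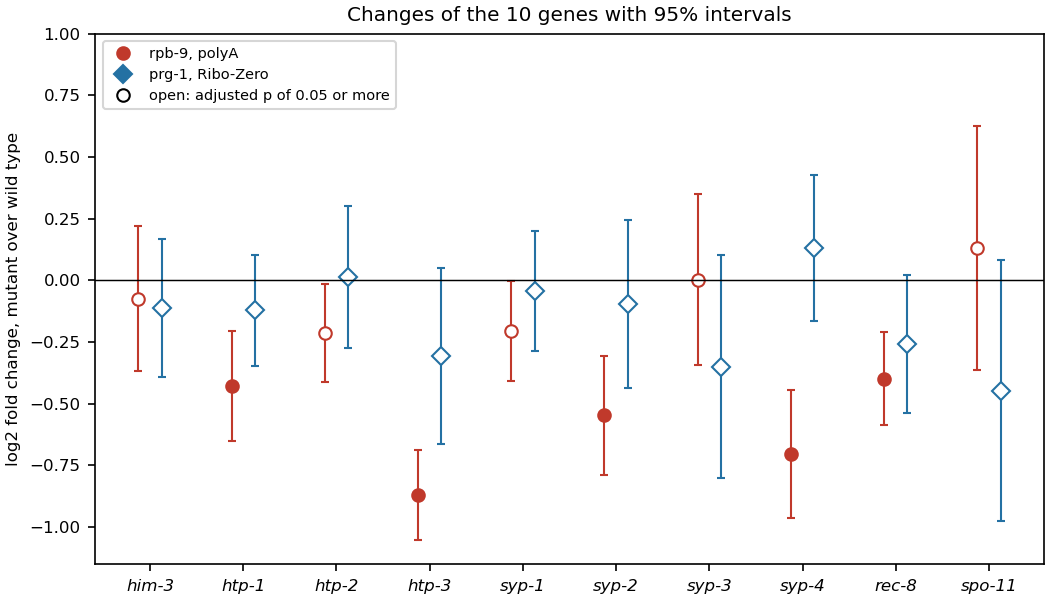
Log2 fold change of each gene (y axis, mutant over wild type, TMM scaling) with its 95% interval, for *rpb-9* in polyA libraries (red circles) and *prg-1* in Ribo-Zero libraries (blue diamonds), 3 libraries against 3 each; filled symbols passed an adjusted p-value of 0.05 in edgeR. The 5 filled symbols are *htp-1*, *htp-3*, *syp-2*, *syp-4* and *rec-8* in *rpb-9*, and under scaling by library size alone *him-3*, *htp-2* and *syp-1* in *rpb-9* lie above 0.

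Counts of decreases depended on the scaling. With library size alone, all genes tested had a median of 0.40 in place of 0.14, 6.49% of them were lower and 39.5% higher (21.3% and 29.5% with TMM), 2 of the 10 genes fell (*htp-3* and *syp-4*), and *him-3*, *htp-2* and *syp-1* were above 0 (0.20, 0.05 and 0.06). Relative to the median of all genes, the median of the 10 was −0.44 with TMM and −0.44 with library size alone. All 10 lay below the median of all genes with TMM, *spo-11* narrowly (0.132 against 0.138). With library size alone 9 did, and 8 did in the TMM fits without *rpb-9* replicate 2 or without replicate 3.

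The library labelled *rpb-9* replicate 1 was the highest of the 3 *rpb-9* libraries for 8 of the 10 genes and the lowest for *syp-4* and *rec-8*. Over all genes tested it was highest for 36.9% and lowest for 49.6%, and over 86 other meiosis genes highest for 30.2% and lowest for 60.5%. Without it, 8 of the 10 genes fell, with *him-3*, *htp-2* and *syp-1* added, and 29% of all genes were lower in place of 21.3%. In that fit *syp-3* and *spo-11* had log2 fold changes of −0.14 and −0.16 (adjusted p = 0.136 and 0.111, edgeR quasi-likelihood test, Benjamini-Hochberg adjusted).

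This library also differed from its replicates by transcript length. Over the 6354 genes with a mean above 16 CPM, its log2 CPM minus the mean of *rpb-9* replicates 2 and 3 had a median of 0.23 over the shortest genes and −0.39 over the longest when these were split by exon length into 3 equal groups (Spearman correlation with length across genes −0.67, where genes share the library and are not independent). The same correlation was 0.74 for *rpb-9* replicate 2 and 0.45 for replicate 3, each against the other 2, and −0.30 to 0.28 for the wild-type libraries. Among the 10 genes, those under 1.5 kb stood 0.11 to 0.82 above their replicates in *rpb-9* replicate 1, led by *spo-11* (0.82), *syp-3* (0.50) and *him-3* (0.43). Of the 3 longest, *syp-4* (−0.36) and *rec-8* (−0.15) stood below and *htp-3* (0.11) above. With a smooth trend on exon length taken out of each library, an alternative added after seeing the data, 7 of the 10 genes fell, with *htp-2* and *syp-1* added, against 27% of all genes lower. There *htp-3* had a log2 fold change of −0.78, *syp-4* −0.66, *syp-2* −0.66, *htp-1* −0.48 and *rec-8* −0.30. What gave the length trend was not tested.

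**Figure D3:**
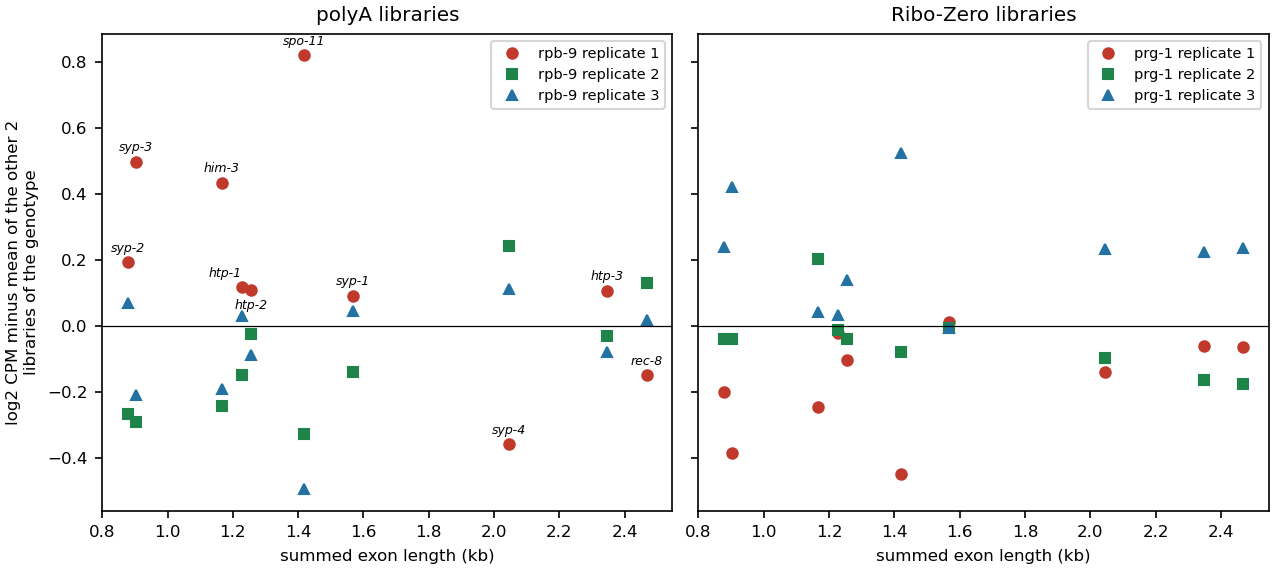
Log2 CPM of each of the 10 genes in a mutant library minus the mean of the other 2 libraries of that genotype (y axis) against summed exon length in kb (x axis), for the *rpb-9* polyA libraries (left) and the *prg-1* Ribo-Zero libraries (right); each point is 1 gene in 1 library. In *rpb-9* replicate 1 *spo-11* is 0.82 above and *syp-4* 0.36 below its replicates, and in *prg-1* replicate 3 *spo-11* is 0.52 above.

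In *prg-1* mutants 0 of the 10 mRNAs fell or rose at an adjusted p-value under 0.05 among 11794 genes tested by edgeR. The count was also 0 at an unadjusted p-value under 0.05, by which 8.13% of all genes were lower, and with DESeq2. Few genes passed in this table at all, with 0.263% of those tested lower and 0.899% higher, and 0.119% called by the 2-fold rule (0.017% lower). The libraries did not overlap for 2 of the 10 genes (*htp-1* and *rec-8*), against 12.3% of all genes tested that were lower without overlap. The 10 genes had 84 to 609 counts per library here, against 984 to 5094 in the polyA table, and the standard error was larger than in the polyA fit for 8 of the 10, not for *him-3* and *htp-1*. Adjusted p-values of the 10 ran from 0.302 to 0.956 (edgeR).

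The 2 genes without overlap had small differences. *rec-8* had 55.9, 58.4 and 63.4 CPM in wild type and 48.0, 45.5 and 55.2 in *prg-1*, a log2 fold change of −0.26 (95% interval −0.54 to 0.02). *htp-1* had 44.6, 43.8 and 45.3 CPM against 40.5, 40.7 and 41.6, a log2 fold change of −0.12 (95% interval −0.35 to 0.10). The wild-type libraries were the higher ones in both.

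The lowest fold change was that of *spo-11*, with 19.2, 14.2 and 21.1 CPM in wild type and 10.6, 12.6 and 16.8 in *prg-1* (−0.45, 95% interval −0.97 to 0.08). *htp-3* had 49.96, 56.0 and 69.5 CPM against 45.8, 43.6 and 52.3 (−0.31, 95% interval −0.66 to 0.05). In both genes 1 *prg-1* library lay inside the wild-type range. *syp-3* had a log2 fold change of −0.35 (95% interval −0.80 to 0.10), and *him-3*, *syp-1* and *syp-2* had −0.11, −0.04 and −0.10. *htp-2* (0.01) and *syp-4* were the only ones above 0 with TMM scaling, whereas *him-3*, *htp-1*, *syp-1* and *syp-2* were also above 0 (0.0083 to 0.080) with library size alone. *syp-4* had 57.5, 60.4 and 68.9 CPM in wild type and 63.8, 65.1 and 75.8 in *prg-1* (0.13, 95% interval −0.16 to 0.43), with groups that overlapped. Of these intervals, those of *htp-3*, *syp-3*, *spo-11* and *rec-8* reach below −0.5, so at this depth a decrease of that size in these 4 genes cannot be told from none.

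**Figure D4:**
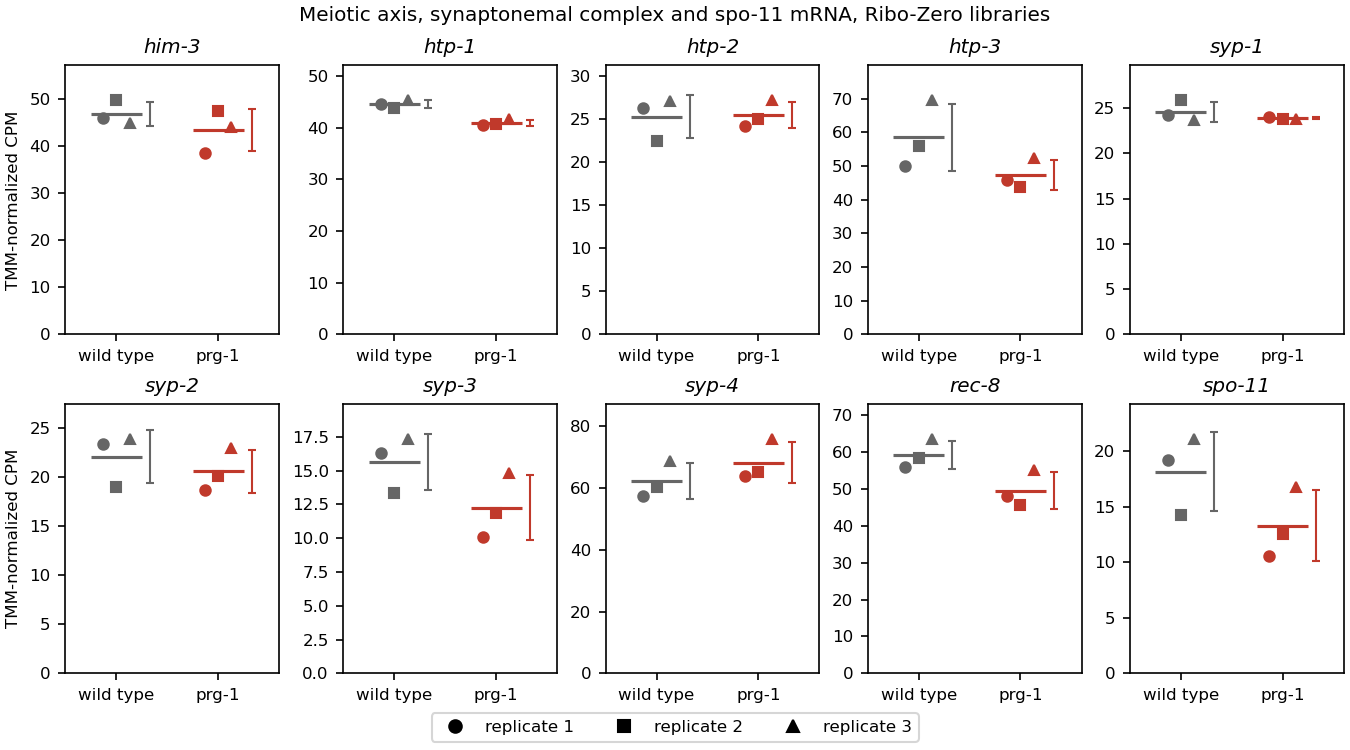
TMM-normalized CPM of each of the 10 genes in the 6 Ribo-Zero libraries (y axis, from 0), with wild type in grey and *prg-1* in red; symbols are replicates, horizontal bars the means and error bars the SD of 3 libraries. Only *htp-1* and *rec-8* show no overlap between the groups, and replicate 3 is the highest library of its genotype for 8 of the 10 genes in wild type and in *prg-1*.

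Replicate 3 of both genotypes stood out in this table. It was the highest wild-type library and the highest *prg-1* library for 8 of the 10 genes each, and for 68 and 73 of 84 other meiosis genes, against 38.6% and 41.4% of all genes tested. The summed level of the 10 genes was 363, 363 and 405 CPM in wild type against 324, 336 and 375 CPM in *prg-1*, lower in *prg-1* for each number. With the replicate number as a block, 216 genes were lower in place of 31, and 0 of the 10 genes were among them. In that fit *htp-3* had a log2 fold change of −0.30 (adjusted p = 0.154, edgeR), *spo-11* −0.45 (adjusted p = 0.164) and *rec-8* −0.26 (adjusted p = 0.166). On the first principal component *prg-1* replicate 3 lay within the wild-type range, as given above. Without *prg-1* replicate 3, 1157 genes (10.1%) were lower in place of 31, and 0 of the 10 were among them. There *rec-8* (−0.33) and *spo-11* (−0.63) both had an adjusted p of 0.0526, *syp-3* (−0.49) of 0.072 and *htp-3* (−0.37) of 0.0933 (edgeR).

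Both mutants were then compared in 1 fit of the 12 libraries, which asked whether the change of a gene differed between them. The comparisons share no library, but RNA selection, depth and mutated gene differ together and cannot be told apart. Of 14938 genes tested, 2.64% differed at an adjusted p-value under 0.05. Of the 10, only *syp-4* did, with a difference of −0.80 between the log2 fold changes in *rpb-9* and *prg-1* (95% interval −1.17 to −0.42, adjusted p = 0.031, edgeR quasi-likelihood test, Benjamini-Hochberg adjusted). The call was lost in 8 of the 12 fits that left out a library. Without *prg-1* replicate 3 the difference was −0.61 and did not pass (adjusted p = 0.0644, edgeR). Without *rpb-9* replicate 1 it was −0.70 and passed (adjusted p = 0.0379, edgeR). With the replicate number as a block within the Ribo-Zero libraries, an alternative added after seeing the data, 5.2% of all genes differed, and of the 10 again only *syp-4* (−0.79, adjusted p = 0.0101, edgeR). For *htp-3*, which fell in *rpb-9* and did not pass in *prg-1*, the difference was −0.52 (95% interval −0.92 to −0.11, adjusted p = 0.177, or 0.0537 with that block, edgeR quasi-likelihood test, Benjamini-Hochberg adjusted). For *syp-2*, *htp-1* and *rec-8* it was −0.40, −0.26 and −0.10 (adjusted p = 0.308, 0.401 and 0.791, edgeR), so a difference between mutants was not shown for these 3 genes.

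Other meiosis genes were taken from 8 lists of 87 genes written from general knowledge, of which 86 were in the tables. In *rpb-9*, 67 of 86 tested fell and 1 rose at an adjusted p-value under 0.05, with a median log2 fold change of −0.49. These counts stand beside the 21.3% and 29.5% of all genes given above, and under library size alone 26 fell. Of genes for meiotic divisions and release of cohesion, 13 of 14 fell. Of those for crossover designation and resolution 12 of 14 fell, of cohesin and its regulators 8 of 10, and of chromosome pairing and synapsis control 9 of 13. Of strand exchange and repair genes 7 of 10 fell, of break formation and resection genes 6 of 10, and of the remaining synaptonemal complex genes 3 of 4. Of genes for meiotic entry and translational control, 9 of 11 fell and 1 rose.

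**Figure D5:**
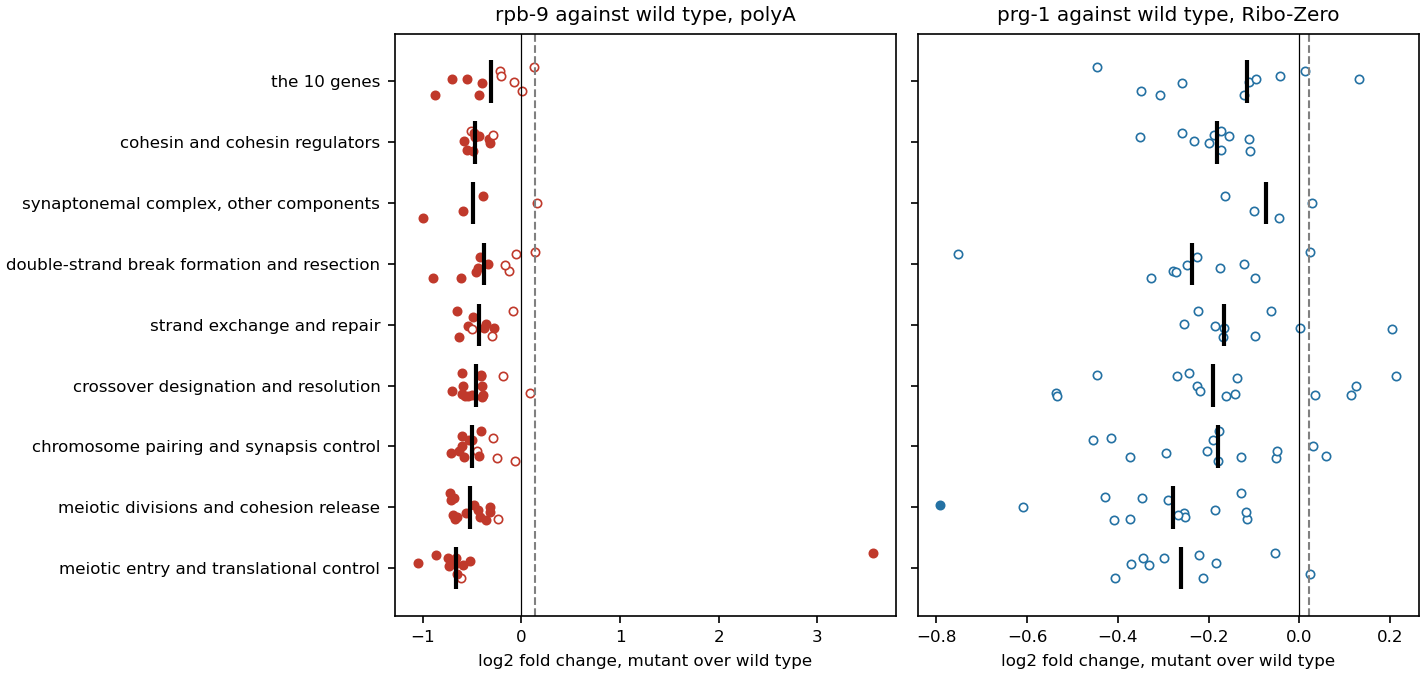
Log2 fold change (x axis, mutant over wild type, TMM scaling) of the 10 genes and of each list of other meiosis genes in *rpb-9* (left) and *prg-1* (right); each point is 1 gene tested, filled where the adjusted p-value was under 0.05 in edgeR, black bars are list medians and the dashed line is the median of all genes. In *rpb-9* the medians of the lists of other genes lie between −0.66 and −0.38, and the point at the far right is *fog-3*, with at most 2 counts per wild-type library.

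The 4 largest decreases were those of *daz-1*, an RNA-binding protein gene needed in oogenesis (463 ± 21.3 to 224 ± 40.2 CPM, log2 fold change −1.05), *skr-2*, a Skp1-related gene whose product is also found in the synaptonemal complex (166 ± 9.75 to 83.4 ± 7.56, −0.99), *xnd-1*, which affects where breaks form (232 ± 4.60 to 125 ± 9.08, −0.90), and *gld-1*, a translational repressor (1259 ± 17.2 to 693 ± 84.7, −0.86; SD, n = 3). Adjusted p-values of the 4 ran from 0.000231 to 0.000785 (edgeR). The gene that rose was *fog-3*, which directs germ cells to the sperm fate. Its counts were 0, 2 and 2 in wild type against 12, 22 and 34 in *rpb-9*, so its fold change rests on few counts. It passed the filter on low counts only through the *rpb-9* libraries, so its being tested depended on its level there.

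In *prg-1*, 1 of the 84 other meiosis genes tested fell and 0 rose, and the median was −0.19. That gene was *csc-1*, a subunit of the chromosomal passenger complex, with 37.7, 40.2 and 44.7 CPM in wild type and 26.6, 23.0 and 21.2 in *prg-1*. The groups did not overlap, and the log2 fold change was −0.79 (standard error 0.13, adjusted p = 0.0457, edgeR quasi-likelihood test, Benjamini-Hochberg adjusted). At an unadjusted p-value under 0.05 the count was 13 in either direction, against 8.13% of all genes lower and 10.7% higher. The count of genes that fell at an adjusted p-value under 0.05 (edgeR) was 26 without *prg-1* replicate 3, where 10.1% of all genes were lower. That count was 0 without any one of the other 5 libraries. Under every scaling tried except library size alone 1 gene fell, and under that 0 did.

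The 5 genes whose profile over the 12 libraries was most like the mean of the 10, as log2 CPM minus the mean of each table, were *prom-1*, *fbxa-206*, *F25H8.2*, *ufd-1* and *era-1*, with Pearson correlations of 0.979 to 0.973 among 11354 genes. The points share genotype and library, so this describes these libraries only. *prom-1*, an F-box gene with a role in meiotic entry and homolog pairing, had a log2 fold change of −0.79 in *rpb-9* and −0.29 in *prg-1*. *era-1*, whose mRNA is known from early embryos, had −0.56 and −0.28. Of the 10 genes themselves, correlations with that mean, which includes them, ran from 0.53 (*spo-11* and *him-3*) to 0.94 (*syp-2*).

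Markers of other cells moved too. In bulk RNA of whole animals, fewer germ cells and less RNA per germ cell cannot be told apart. In *rpb-9*, where 21.3% of all genes were lower and 29.5% higher, all 23 oocyte and early embryo genes fell, and their summed level was 22975 to 24078 CPM in wild type and 11767 to 14464 in *rpb-9*. Of genes of germ granules and germ cells 13 of 14 fell (6429 to 6730 against 3083 to 4196 CPM), and of DNA replication and mitosis genes 14 of 15. Body wall muscle genes went the other way, with 11 of 15 higher (1843 to 2256 against 2770 to 4148 CPM). Other somatic lists did not all follow muscle. Of intestine genes 6 of 13 were higher and 2 lower, and their summed level was 73211 to 85585 CPM in wild type and 32245 to 62125 in *rpb-9*. Of neuron genes 4 of 18 were higher, of somatic gonad genes 2 of 7 and of cuticle genes 1 of 12, with 0 lower in these 3 lists, and 3 of 5 germline stem cell genes fell. Sperm genes were near the floor, with 43.3 to 49.9 CPM in wild type against 63.3 to 64.9 in *rpb-9* over 27 genes. Of the 17 tested, 12 were higher and 2 lower. A gene could pass the filter on low counts through the *rpb-9* libraries alone, so no conclusion is drawn from these counts. The part of these shifts in the values of the 10 genes was not tested. In *prg-1* no gene of any marker list passed (edgeR; 18 of 134 at an unadjusted p-value under 0.05). There replicate 3 of both genotypes had the lowest summed sperm level, 39.1 CPM against 73.8 and 82.5 in wild type and 26.02 against 162 and 166 in *prg-1*, and its part in the values of the 10 genes was not tested. Muscle genes were also lowest in replicate 3 of both genotypes (3845 against 6371 and 6473 CPM, and 4046 against 9162 and 11004). So were neuron and cuticle genes. Oocyte and early embryo genes were highest there (9161 against 6891 and 6851 CPM, and 7343 against 6280 and 5231). The germ granule, germline stem cell and DNA replication lists were highest there too. Intestine and somatic gonad lists were highest in wild-type replicate 3 and intermediate in *prg-1* replicate 3.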

How the data were processed

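RNA-seq tables of polyA-selected (*rpb-9*) and Ribo-Zero (*prg-1*) libraries were used. The authors deposited expected counts per gene without normalization, made with STAR on ce11 plus the piRNA sensor (2 mismatches, no introns, end to end) and featureCounts on exons with multi-mapped reads split into fractions and no strand option named. The polyA kit does not mark strand. The 2 lanes of each Ribo-Zero library are 1 column.

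After rounding, counts were tested with edgeR 4.0.16 in R 4.3.3 (TMM, quasi-likelihood test of genotype alone), with Benjamini-Hochberg adjustment over all genes that reached 10 counts in 3 or more libraries. A gene was said to rise or fall at an adjusted p-value under 0.05. The joint fit had a term for the table and no replicate block. Gene names and sequences came from Ensembl WBcel235 annotation and the RefSeq genome of that assembly, and figures from python 3.11.15. On simulated counts, 35 of 50 genes lowered to 0.5 of their level were recovered in the polyA design and 16 of 50 in the Ribo-Zero design, at an adjusted p-value under 0.05. Of 50 genes raised to 1.5 of their level, 17 and 3 were recovered, and 13 and 9 unchanged genes were called. The changed genes were drawn from all with a mean of 50 or more counts, so these rates are not specific to the 10 genes.

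The members and lists were chosen with earlier results of these data known. Named genes were the 10 members; in each comparison, up to 4 other meiosis genes with the largest decrease and 4 with the largest increase among those past 0.05 without overlap; the 5 most alike in profile; and *rpb-9*, *prg-1* and the sensor. Ratios within a library were added after seeing values. Replicate numbers come from the column names. In the Ribo-Zero table they were taken to pair libraries, since deviations of same-numbered libraries correlated at 0.15, 0.36 and 0.43. The labels give no pairing, so it was read from the same data. Replicates 1 and 2 were not told apart by this check, since libraries numbered 1 and 2 also correlated across numbers (0.16 and 0.32). In the polyA table these were 0.06, 0.11 and −0.14, and no pairing was taken. Alternatives were RLE scaling, library size alone, TMM without ribosomal RNA genes, DESeq2 1.42.0, no filter, a replicate block, leaving out each library and 3 added later (*htp-1* and *htp-2* summed; exon length trend removed with lowess, span 0.3; a replicate block within Ribo-Zero in the joint fit). Further tables, with 24 columns not paired with a genotype by the labels, were not used here, nor were tables of piRNAs.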

Additional observations from a re-analysis of the deposited data

Results flagged for a closer look

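*syp-4* was the only one of the 10 genes whose change differed between the comparisons by a test of the difference itself. The difference of log2 fold changes (*rpb-9* in polyA minus *prg-1* in Ribo-Zero) was −0.80 (−0.70 and 0.13 in the separate fits, n = 3 libraries per group; adjusted p = 0.031, edgeR quasi-likelihood test, Benjamini-Hochberg adjusted). It was below 0 in each of the 12 fits that left out a library, between −0.87 and −0.61. It passed the threshold in 4 of them, but not without *prg-1* replicate 3 (−0.61, adjusted p = 0.0644, edgeR).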

How the results depend on the processing

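In the polyA comparison scaling by library size alone gave 927 genes lower (3034 with TMM), 2 of the 10 genes lower (5) and 26 other meiosis genes lower (67), with log2 fold changes above 0 for *him-3* (0.20), *htp-2* (0.053) and *syp-1* (0.058), and *htp-1* (−0.17), *syp-2* (−0.28) and *rec-8* (−0.14) no longer past the threshold. With RLE scaling and with DESeq2, *htp-2* and *syp-1* passed as well, and *syp-3* was −0.0820 and −0.0821. *syp-3*, at 0.00 with TMM, was also below 0 with the replicate block (−0.015) and without the length trend (−0.11). Over the fits without 1 library it ran from −0.14 to 0.17, *spo-11* from −0.16 to 0.39 and *him-3* from −0.19 to 0.083. Leaving out each library gave 1132 to 2081 genes called, 1543 to 3831 lower, 4 to 8 of the 10 genes lower and 44 to 76 other meiosis genes lower. The replicate block, with numbers that do not pair these libraries, gave 1942 genes called and the same count of 5 of the 10.

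In the Ribo-Zero comparison library size alone gave 23 genes called (14), 55 lower (31) and 0 other meiosis genes lower (1), and put *him-3* (0.022), *htp-1* (0.0083), *syp-1* (0.080) and *syp-2* (0.052) above 0. DESeq2 gave 336 called and 281 lower, no filter 724 and 535 with *htp-2* at −0.065, and removal of the length trend 47 lower with *htp-2* at −0.026. With the pairing of replicates as a block 216 were lower, and no call among the 10 changed. Leaving out each library gave 0 to 547 called, 1 to 1157 lower and 0 to 26 other meiosis genes lower, with *htp-2* from −0.059 to 0.064 and *syp-1* from −0.071 to 0.0056. *htp-1* and *htp-2* summed gave −0.074. Under every alternative 0 of the 10 genes were lower or higher here, and 0 were higher in the polyA comparison.

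The count of genes that differed between the comparisons was 0 with library size alone (*syp-4* −0.74, adjusted p = 0.225, edgeR) and 0 to 1 over the fits without 1 library. *him-3* differed by −0.084 with no filter and by −0.094 to 0.20 without 1 library, and *rec-8* by −0.17 to 0.091. Of the 434 values of single genes under alternatives, 25 changed sign, and 0 of these passed the threshold. The cause of these changes was not tested. Having 6 libraries per comparison, 1 allele per gene and an unknown age of the animals limits what these values can show, and intervals cover only the spread between libraries.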

Other observations

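Chromosomes differed in their medians in the polyA comparison. Genes on chromosome I, which carries *htp-3*, *syp-3* and *syp-4*, had a median log2 fold change of −0.13, those on IV 0.16, on V 0.40 and on X 0.51, where 3.4% of genes were lower, against 30.5% on chromosome I. None of the 10 genes lies on the X chromosome. In the polyA libraries the ratio of *htp-3* to *him-3* per kb was 0.575, 0.605 and 0.554 in wild type and 0.289, 0.371 and 0.354 in *rpb-9*, and that of *syp-4* to *syp-1* was 2.02, 2.11 and 2.15 against 1.20, 1.76 and 1.52. These 2 pairs were chosen after their values were seen and are given as a description.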
